A study of Mus musculus with 6 samples.

Results

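Ccl2-high tumor cells are tumor cells that hold at least 5 unique molecular identifiers (UMIs, counts of captured transcripts) of *Ccl2*, the gene of a chemokine that draws monocytes. They were chosen by their own *Ccl2* UMIs, so their *Ccl2* level is a description and was not tested. A tumor cell was a cell with at least 200 genes, at most 25% mitochondrial UMIs, at least 3 of *Meg3*, *Serpinh1*, *Col1a2*, *Id3*, *Prrx1* and *Crabp1* detected, and fewer than 10 UMIs of the immune genes *Tyrobp*, *Fcer1g* and *Ptprc* together per 10000 UMIs. Of 22163 cells, 2210 were tumor cells by this rule, and 367 of these were Ccl2-high. They were compared with 1531 Ccl2-zero tumor cells, which hold no *Ccl2* UMI, and described beside 312 Ccl2-low tumor cells, which hold 1 to 4. RNA was measured and secretion of the protein was not.

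The cells come from 6 tumors of mice that carry *Smarcb1* fl/fl, an allele of a SWI/SNF chromatin remodeling subunit that Cre recombinase inactivates, with tamoxifen given once at 50 mg/kg to the pregnant females at 6.5 days post coitum. The MYC spinal tumors are named here by mouse as 1172, 1177 and 1232, arose under Rosa26-creERT2 (Cre expressed across tissues) and were taken at 19, 26 and 17 weeks of age. The MYC extracranial rhabdoid tumors (eRT) were 1148, from a gland under Rosa26-creERT2 at 17 weeks by its label, an age on which the study's sources differ, and 568 and 593, from the jaw and the shoulder under Sox2-creERT2 (Cre driven by *Sox2*) at 29 and 22 weeks. Both eRT that could be tested carry Sox2-creERT2, so for them tumor subtype and mouse model cannot be told apart. All mice carry the floxed allele and were exposed to the tamoxifen, none is an untreated control, and each library is 1 tumor of 1 mouse.

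Ccl2, Ccl7, Ccl8 and Ccl12 are CC chemokines encoded in a single gene cluster, and the Ccl2 and Ccl7 proteins bind the receptor Ccr2 on monocytes. Csf1 is the growth factor that monocytes and macrophages need through Csf1r. Ccl5 attracts T cells, monocytes and other leukocytes, and *Il23a* encodes the p19 subunit of interleukin 23. In many cell types inflammatory signals switch on such genes through NF-kB factors, and the inhibitor gene *Nfkbia* is a target of the same factors.

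On chromosome 11 of the mouse genome GRCm38, all on the plus strand, *Ccl2* lies at 82035571 to 82037453, *Ccl7* at 82045712 to 82047525, *Ccl11* at 82057823 to 82062955, *Ccl12* at 82101845 to 82103400 and *Ccl8* at 82115185 to 82116799. *Csf1* lies on chromosome 3 at 107741048 to 107760469 and *Nfkbia* on chromosome 12 at 55489410 to 55492647, both on the minus strand. The 250 bases before the start of *Csf1* and *Nfkbia* are shown because both genes rose in Ccl2-high cells and both stretches hold the consensus of NF-kB binding, the kappaB site, in capitals. They are RefSeq sequence of GRCm38.p6 on the minus strand, at chr3:107760470-107760719 and chr12:55492648-55492897.
Csf1: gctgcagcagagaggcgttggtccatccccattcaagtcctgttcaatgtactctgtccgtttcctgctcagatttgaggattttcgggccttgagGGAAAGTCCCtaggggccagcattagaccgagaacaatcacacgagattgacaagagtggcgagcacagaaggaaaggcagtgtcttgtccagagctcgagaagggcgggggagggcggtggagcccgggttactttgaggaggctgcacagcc
Nfkbia: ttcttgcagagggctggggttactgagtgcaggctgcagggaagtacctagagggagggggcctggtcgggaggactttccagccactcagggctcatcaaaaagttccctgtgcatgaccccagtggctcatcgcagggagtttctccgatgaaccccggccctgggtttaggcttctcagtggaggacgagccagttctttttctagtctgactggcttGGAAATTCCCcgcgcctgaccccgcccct
Of the 15 genes higher in Ccl2-high cells, 8 had a promoter in the RefSeq table, and *Csf1* and *Nfkbia* were the 2 with a kappaB site on either strand. *Ccl7* and *Mmp9* had no promoter there, and neither had *Ccl2*. Of the 20 lower genes, 18 had a promoter and 0 held the site. Over all 32851 promoters of the table, 3.9% held it. The AP-1 site TGANTCA, searched on both strands, was in 0 promoters of the higher genes and in 2 of the lower genes (*Ctla2a* and *Nfix*), against 6.75% of all. A gene was counted where any promoter listed for it held the site, whereas the shares of all are per promoter. These matches describe letters and not binding.

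Ccl2-high cells were found in 5 of the 6 tumors, and MYC spinal 1232 and eRT 593 held nearly all of them. MYC spinal 1232 held 203 among 1332 tumor cells (15.2%, 13.4 to 17.3, exact binomial 95% interval), and eRT 593 held 146 among 649 (22.5%, 19.3 to 25.9). The eRT 568 held 12 among 69 (17.4%, 9.32 to 28.4), MYC spinal 1177 held 5 among 12 (41.7%, 15.2 to 72.3) and eRT 1148 held 1 among 53 (1.89%, 0.0478 to 10.1). MYC spinal 1172 held 0 among 95, for which the interval reaches 3.81%. The shares of the subtypes overlapped, with means of 19% ± 21.1 (SD, n = 3) in MYC spinal tumors and 13.9% ± 10.7 (SD, n = 3) in eRT. The difference of -5.04 percentage points had p = 0.9 in a two-sided exact permutation test, for which the smallest possible p is 0.1. Without MYC spinal 1177, whose share rests on 12 tumor cells, the difference was 6.3 points, and without eRT 1148 it was 0.975 points, both in the opposite direction.

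**Figure D1:**
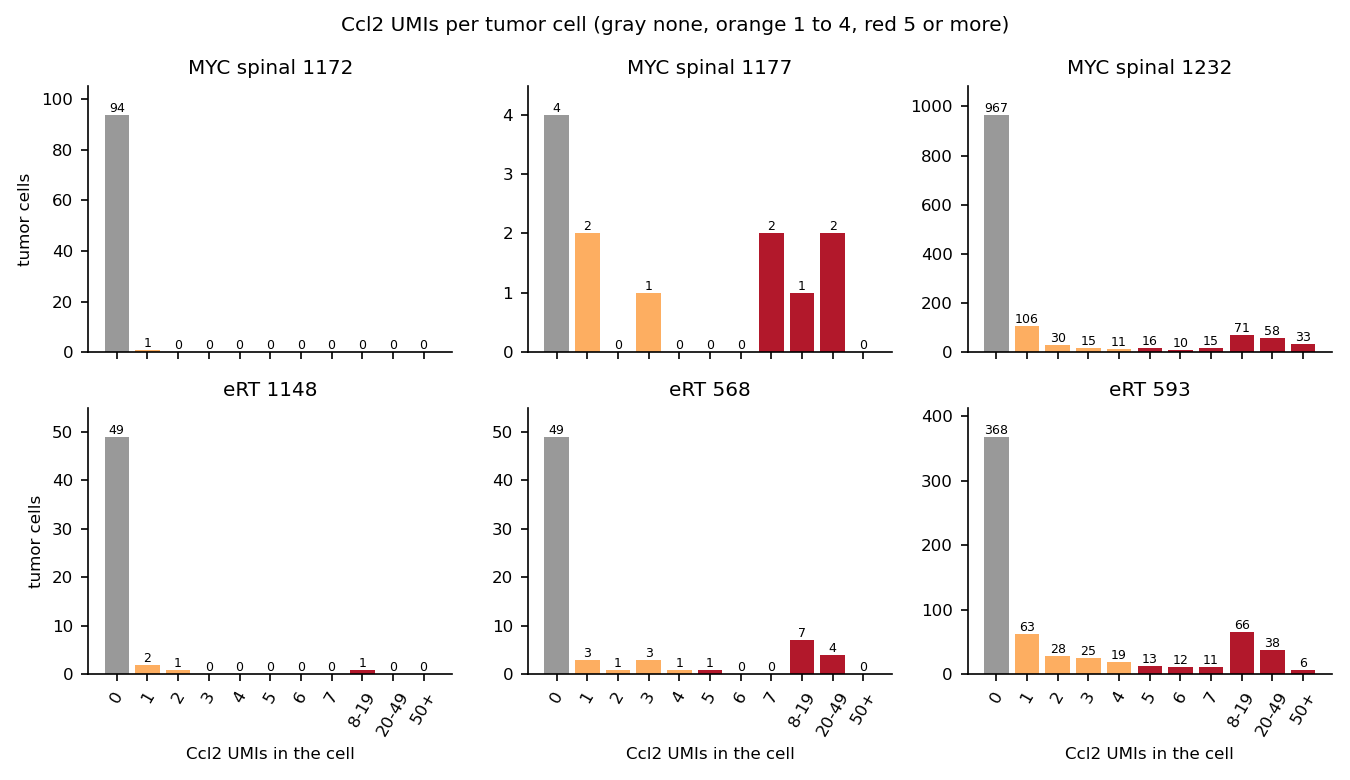
Number of tumor cells (y axis) by the number of *Ccl2* UMIs in the cell (x axis), with a panel for each tumor, Ccl2-zero cells in gray, Ccl2-low cells in orange and Ccl2-high cells in red. MYC spinal 1232 and eRT 593 hold 203 and 146 Ccl2-high cells, of which 71 and 66 hold 8 to 19 UMIs.

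The chosen cells spanned a wide range of *Ccl2*. The median was 17, 16.5 and 13 UMIs per cell in MYC spinal 1232, eRT 568 and eRT 593, and the highest cells held 205, 31 and 97. Just inside the threshold, 30 tumor cells held 5 UMIs, and just outside it 31 held 4. Levels below are counts per 1000000 UMIs (CPM), summed over all cells of a kind in a tumor, and are given in the order MYC spinal 1232, eRT 568, eRT 593 wherever 3 values stand together. *Ccl2* stood at 4065, 2155 and 2627 CPM in Ccl2-high cells. In the immune cells of these tumors, which are the cells at or over the cut on *Tyrobp*, *Fcer1g* and *Ptprc*, it stood at 141, 1211 and 724 CPM. All tumor cells of a tumor together stood at 903, 591 and 925 CPM, which in eRT 568 is below its immune cells. That Ccl2-high cells lie above both follows from their choice.

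*Smarcb1* RNA, which the choice of cells did not use, was close to absent from Ccl2-high cells. They held 3 *Smarcb1* UMIs in MYC spinal 1232 (1.95 CPM), 0 in eRT 568 (3 counts would be 32.3 CPM) and 1 in eRT 593 (1.05 CPM). The immune cells of the same tumors stood at 40.9, 40.2 and 50.5 CPM. At the immune level 115 UMIs would have been counted, and the 4 UMIs are 0.0349 of that (exact Poisson 95% interval 0.00951 to 0.0893). Ccl2-zero cells held 14 UMIs, a ratio of 0.0514 (0.0281 to 0.0863), and the intervals overlap. These are 3′ tags and the deleted stretch is not given in the sources used here, so they check the amount of transcript and not the deletion. Intervals cover counting error only.

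Tests used the tumors with at least 10 cells of both kinds, which were MYC spinal 1232, eRT 568 and eRT 593, with Ccl2-high and Ccl2-zero cells paired by tumor. The sums of eRT 568 rest on 12 and 49 cells. Ccl2-high cells were deeper, with medians of 7199, 8328 and 6234 UMIs per cell against 4291, 4223 and 3334 in Ccl2-zero cells. Macrophage markers (10 genes) summed to 438, 97 and 545 CPM in Ccl2-high and 427, 98.8 and 719 CPM in Ccl2-zero cells, against 7840, 10021 and 41437 CPM in immune cells, and *Mrc1* was at 0. Neutrophil markers summed to 178, 431 and 5.27 CPM against 313, 425 and 2.18 CPM in Ccl2-zero cells, monocyte markers to 22.1, 32.3 and 6.32 against 65.7, 193 and 7.98 CPM, T or NK cell markers to 6.5, 0 and 5.27 against 25.9, 47.2 and 23.9 CPM and B cell markers to 26.7, 10.8 and 4.21 against 47.3, 4.3 and 9.43 CPM. All 6 dendritic cell markers and both mast cell markers in the tables were at 0 in Ccl2-high cells, as were *Cxcr2* of neutrophils, *Cd8a* and *Cd8b1* of T cells and *Ms4a1* of B cells. Dendritic cell markers summed to 2.12, 8.59 and 0.726 CPM in Ccl2-zero and 8.51, 284 and 43.7 CPM in immune cells. The mast cell markers were at 0 in Ccl2-zero and immune cells as well, so their zeros do not separate the kinds. Endothelial markers summed to 56.6, 32.3 and 14.7 CPM against 44.3, 64.4 and 9.43 CPM, with *Kdr* and *Tie1* at 0. Fibroblast markers summed to 536, 1099 and 540.3 CPM in Ccl2-high and 847, 1770 and 854 CPM in Ccl2-zero cells. Pericyte and smooth muscle markers were at 100.2, 420.2 and 34.8 CPM against 21.4, 249 and 34.1 CPM, most of it *Acta2* in eRT 568. The 1 marker gene past the test was *Plac8* of the monocyte list, which was lower in Ccl2-high cells.

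Among 7524 genes tested, 15 were higher (0.199%) and 20 lower (0.266%) in Ccl2-high than in Ccl2-zero tumor cells at an adjusted p under 0.05 (edgeR's quasi-likelihood test, Benjamini-Hochberg adjustment). The higher genes were led by the neighboring chemokine *Ccl7* and included *Csf1*, the protease gene *Mmp9*, the NF-kB inhibitor gene *Nfkbia* and the cell cycle genes *Ccnd1*, *Rrm2* and *Mcm3*. The lower genes included *Dlk1*, *Npy*, *Ptn* and *Id2* and the matrix gene *Bgn*. Without TMM factors, which correct sums for composition, 22 genes were higher and 80 lower, and the median log2 change of all genes moved from -0.02 to -0.13. The count was 13 without MYC spinal 1232, 84 without eRT 568 and 5 without eRT 593. Of the 35 genes, 30, 35 and 32 were tested in these fits, all in the same direction as with 3 tumors, and 10, 26 and 5 remained past the threshold. For *Ccl7* the edgeR adjusted p without MYC spinal 1232, without eRT 568 and without eRT 593 was 0.025, 0.046 and 3.23e-05, for *Csf1* 0.23, 0.038 and 0.094, for *Mmp9* 0.017, 0.0503 and 0.51, for *Nfkbia* 0.08, 0.039 and 0.19 and for *Ccnd1* 0.08, 0.03 and 0.21. For *Rrm2* it was 0.17, 0.0503 and 0.79 and for *Mcm3* 0.5, 0.042 and 0.79. For *Dlk1* it was 0.036, 0.013 and 0.044, for *Npy* 0.0045, 0.04 and 0.00033 and for *Id2* 0.056, 0.046 and 0.11.

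**Figure D2:**
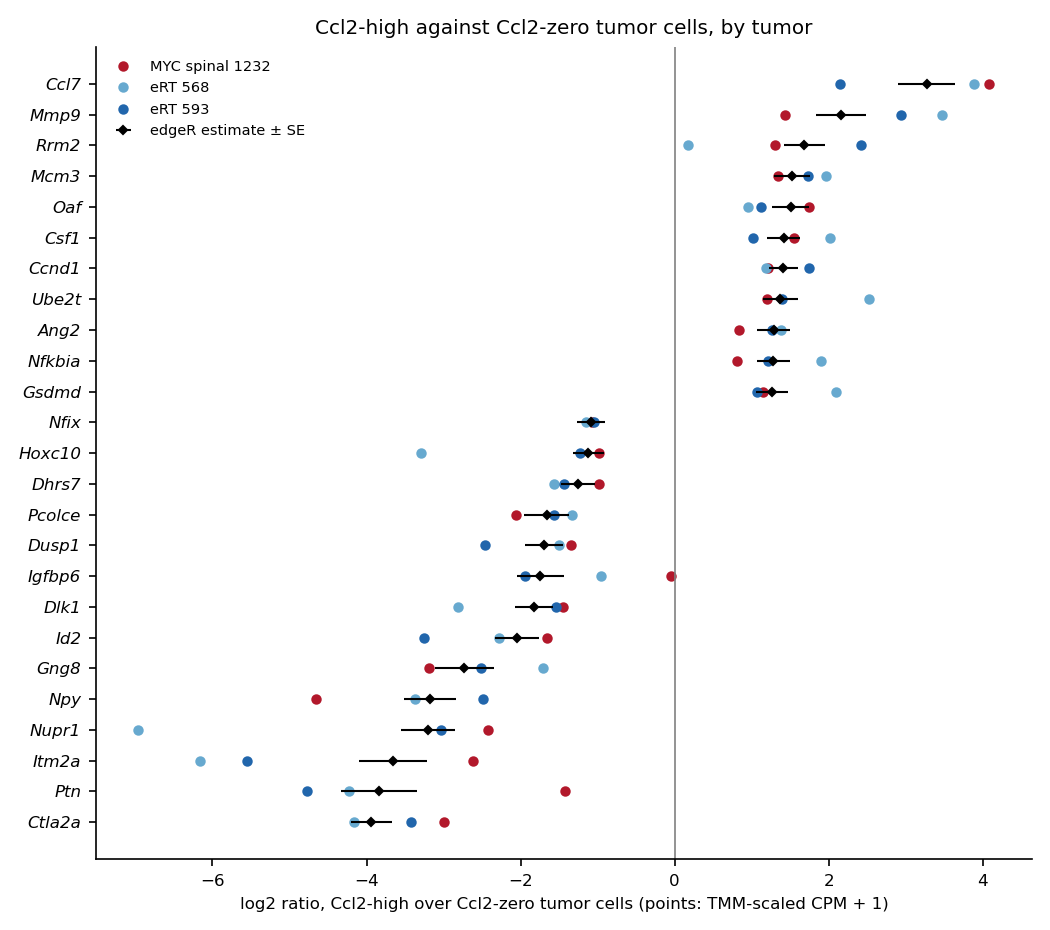
Log2 ratio of Ccl2-high over Ccl2-zero tumor cells (x axis) for the 25 genes (y axis) past the threshold that moved alike in the 3 tumors and had a mean log2 CPM of at least 5, with colored points for the tumors and black diamonds for the edgeR estimate and its standard error. Among the genes plotted, *Ccl7* has the highest estimate, 3.27, and *Ctla2a* the lowest, -3.94.

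The chemokines did not move as a group. *Ccl7* rose by 3.27 ± 0.37 (log2 ± SE, edgeR adjusted p = 0.0077). It stood at 179, 1412 and 844 CPM in Ccl2-high against 10.4, 85.9 and 212 CPM in Ccl2-zero cells. Every Ccl2-high level exceeded the Ccl2-zero level of its own tumor, while across tumors the kinds overlapped. Ccl2-low cells stood at 98.5, 2063 and 664 CPM, above the Ccl2-zero cells of each tumor.

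Of 7 CC chemokines tested, *Ccl7* alone passed, and the median change of the list was -0.01, against -0.02 for all genes. *Ccl12*, of the same cluster, stood at 1.95, 10.8 and 25.3 CPM in Ccl2-high against 3.39, 0 and 41.4 CPM in Ccl2-zero cells and did not pass (-0.49 ± 0.42, edgeR adjusted p = 0.65). *Ccl11*, which draws eosinophils, was read in eRT 568 alone among these tumor cells, at 2036 CPM in Ccl2-high and 558 CPM in Ccl2-zero cells, and was not tested. *Ccl8* stood at 0.65, 4256 and 381 CPM in Ccl2-high against 27.3, 1048 and 136 CPM in Ccl2-zero cells. It was thus lower in Ccl2-high cells of MYC spinal 1232 and higher in those of both eRT. The difference between the subtypes was 6.88 ± 0.96 on the log2 scale by edgeR. That difference sets 1 MYC spinal tumor against 2 eRT, so it holds no spread between MYC spinal tumors. DESeq2 did not call it.

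*Ccl5* also went opposite ways. It stood at 2615, 86.2 and 81.1 CPM in Ccl2-high, 1882, 719 and 69.8 CPM in Ccl2-low and 972, 404 and 139 CPM in Ccl2-zero cells. The Ccl2-high level was the highest of the 3 kinds in MYC spinal 1232 and lay below that of Ccl2-zero cells in both eRT. Over the 3 tumors the change was -0.01 ± 0.50 (edgeR adjusted p = 0.998). The difference between the subtypes was -2.77 ± 0.60 by edgeR, again with 1 MYC spinal tumor, and DESeq2 did not call it.

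Among CXC and CX3C chemokines, 0 of 5 tested passed by edgeR, 2 higher and 1 lower had an unadjusted p under 0.05, and the median change was 0.82. Of all 7524 genes tested, 542 higher and 597 lower had such a p by edgeR. *Cxcl1*, a neutrophil attractant, was higher in 3 of 3 tumors, at 79.4, 409 and 16.9 CPM against 34.8, 38.7 and 7.98 CPM (1.70 ± 0.32, edgeR adjusted p = 0.059). *Cxcl16* stood at 188, 64.7 and 503 CPM against 87.9, 73 and 275 CPM (0.98 ± 0.22, edgeR adjusted p = 0.091). *Cxcl10*, an interferon-induced T cell attractant, stood at 597, 10.8 and 3.16 CPM against 280.1, 81.6 and 0.726 CPM (edgeR adjusted p = 0.41).

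Among colony-stimulating factors and cytokines, *Csf1* rose by 1.42 ± 0.21 (edgeR adjusted p = 0.027), the 1 gene of 9 tested to pass. It stood at 194, 366 and 951 CPM in Ccl2-high against 71.2, 81.6 and 526 CPM in Ccl2-zero cells. Ccl2-low cells lay between in each tumor, at 122, 92.7 and 784 CPM. The Ccl2-low value of eRT 568 is 4 UMIs, where 3 counts would be 69.5 CPM, so it cannot show the order there. Immune cells held 13, 17.7 and 21.8 CPM, below each kind of tumor cell. *Lif*, an interleukin 6 family cytokine gene, stood at 38.4, 32.3 and 1.05 CPM against 16.5, 12.9 and 0 CPM (edgeR adjusted p = 0.12). *Spp1*, the gene of osteopontin, stood at 45.5, 10.8 and 3.16 CPM against 87.3, 38.7 and 59.5 CPM (edgeR adjusted p = 0.15).

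*Il23a* was read in the Ccl2-high cells of MYC spinal 1232 and in those of neither eRT. In MYC spinal 1232 the Ccl2-high cells held 798 UMIs (519 CPM), against 218 CPM in Ccl2-low, 133 CPM in Ccl2-zero and 23.6 CPM in immune cells. The Ccl2-high cells of eRT 568 and eRT 593 held 0 UMIs, where 3 counts would be 32.3 and 3.16 CPM. *Il23a* was not tested, so its order in MYC spinal 1232 has no replicate check.

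**Figure D3:**
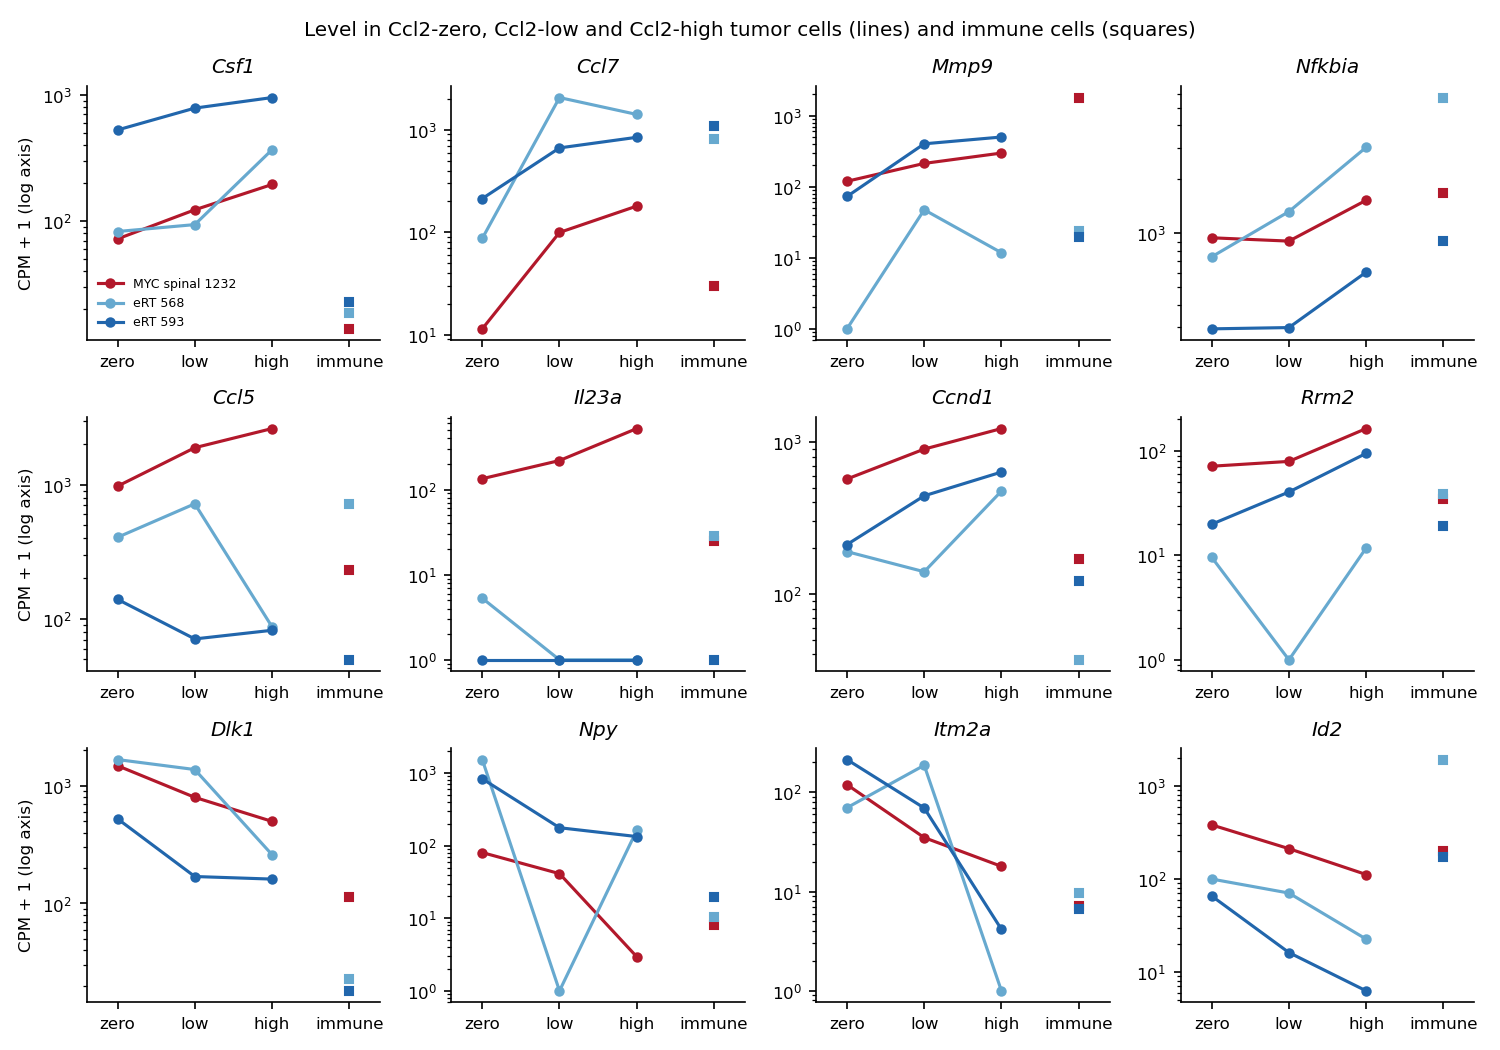
Level of 12 genes in CPM + 1 (y axis, log scale) in Ccl2-zero, Ccl2-low and Ccl2-high tumor cells (joined points) and in immune cells (squares) of MYC spinal 1232, eRT 568 and eRT 593 (colors). *Csf1* climbs from 71.2 through 122 to 194 CPM in MYC spinal 1232, and *Ccl5* climbs in that tumor and lies lower in Ccl2-high than in Ccl2-zero cells of both eRT.

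How much of a tumor's ligand RNA these cells held differed by ligand and tumor. Of all *Ccl2* UMIs, Ccl2-high tumor cells held 66.5% in MYC spinal 1232, 30.0% in eRT 593, 13.3% in MYC spinal 1177 and 6.03% in eRT 568, where they were 3.01%, 3.63%, 0.087% and 0.588% of the cells. Immune cells held 27.2%, 66%, 83.9% and 92.6% in these tumors, 99.2% in MYC spinal 1172 and 99.4% in eRT 1148. Most *Ccl7* UMIs lay in immune cells, with 55.3% in MYC spinal 1232, 88.3% in eRT 568 and 84.1% in eRT 593. More *Csf1* UMIs lay in tumor cells than in immune cells in MYC spinal 1232, where Ccl2-high, Ccl2-low and Ccl2-zero cells held 29.5%, 11.4% and 33.3%, and in eRT 593, where they held 38.6%, 22.1% and 31%. The same held in eRT 568, at 32.7%, 3.85% and 18.3% against 43.3% in immune cells, and in eRT 1148, where Ccl2-zero cells held 75.6% and Ccl2-high cells 0. MYC spinal 1172 and 1177 went the other way, on 43 and 38 *Csf1* UMIs. In 1172 immune cells held 55.8% and Ccl2-zero cells 27.9%. In 1177 immune cells held 57.9%, Ccl2-high cells 13.2% and Ccl2-zero cells 15.8%. These shares depend on how many cells of each kind were captured.

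**Figure D4:**
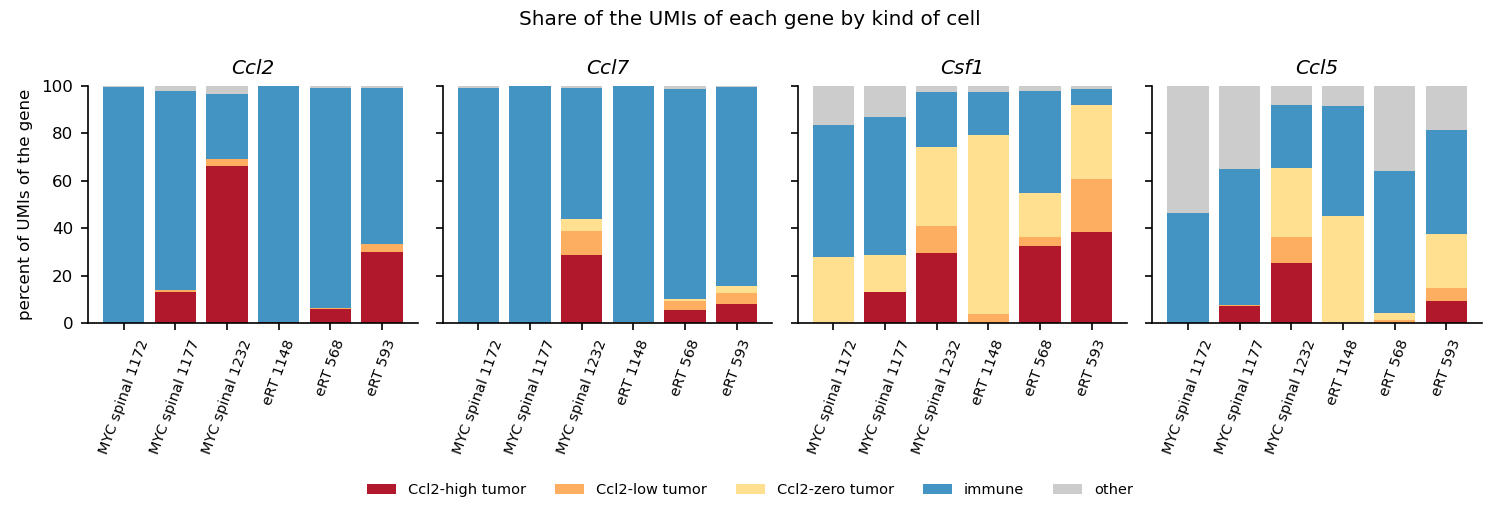
Percent of the UMIs of *Ccl2*, *Ccl7*, *Csf1* and *Ccl5* (y axis) held by each kind of cell (colors) in each of the 6 tumors (x axis). Ccl2-high tumor cells hold 66.5% of the *Ccl2* UMIs of MYC spinal 1232 and 0.459% of those of eRT 1148.

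The receptor genes *Ccr2*, *Csf1r* and *Ccr1* had their higher levels in immune cells, and the atypical chemokine receptor gene *Ackr1* in Ccl2-zero tumor cells and in the Ccl2-high cells of 2 tumors. *Ccr2* was at 47 to 248 CPM in the immune cells of the 6 tumors (median 167) and at 0 to 3.25 CPM in Ccl2-high cells. *Csf1r* was at 72.1 to 705 CPM in immune cells (median 238), 5.2 to 11.6 CPM in Ccl2-high and 4.3 to 12.3 CPM in Ccl2-zero cells. *Ccr1*, a receptor gene for Ccl5, was at 44.3 to 293 CPM in immune cells. *Ackr1* was at 0 to 10.4 CPM in Ccl2-high, 2.18 to 8.59 CPM in Ccl2-zero and at most 0.552 CPM in immune cells. *Il23r*, the receptor gene for interleukin 23, reached 1.18 CPM in immune cells at most. Droplets carry free RNA of other cells, and *Lyz2*, a macrophage gene, gave 153, 64.7 and 313 CPM in Ccl2-high and 141, 73 and 401 CPM in Ccl2-zero cells.

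Among NF-kB factors and feedback genes, 1 of 17 passed. *Nfkbia* rose by 1.28 ± 0.22 (edgeR adjusted p = 0.042), at 1528, 3017 and 607 CPM in Ccl2-high against 944, 739 and 292 CPM in Ccl2-zero cells, with each Ccl2-high level above its own tumor's Ccl2-zero level. The immune cells of these tumors stood above both kinds, at 1679, 5713 and 901 CPM. The median change of the list was 0.62 and 9 of 17 members were higher in all 3 tumors, against 14.8% of all genes tested. For *Traf1* and *Nfkbie* among them, eRT 568 held 1 UMI in Ccl2-high and 2 UMIs in Ccl2-zero cells. That cannot show a rise, since 3 counts in Ccl2-high cells would be 32.3 CPM. *Nfkb2*, the gene of the p100 precursor, stood at 90.4, 129 and 119 CPM against 63.4, 21.5 and 37.7 CPM (1.24 ± 0.28, edgeR adjusted p = 0.092). *Nfkbie* (1.14 ± 0.31, edgeR adjusted p = 0.14) and *Traf1* (0.93 ± 0.25, edgeR adjusted p = 0.13) also did not pass.

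Of 14 other NF-kB target genes tested, *Mmp9*, the gene of gelatinase B, was the 1 that rose, by 2.16 ± 0.32 (edgeR adjusted p = 0.027), and the median change was 0.11. It stood at 297, 10.8 and 499 CPM in Ccl2-high against 118, 0 and 71.8 CPM in Ccl2-zero cells, and the Ccl2-high value of eRT 568 is 1 UMI. In eRT 593 immune cells were at 18.6 CPM, below both kinds, whereas in MYC spinal 1232 they were at 1795 CPM and held 95.9% of the *Mmp9* UMIs. *Plaur*, the urokinase receptor gene, stood at 137, 75.4 and 63.2 CPM against 63.8, 77.3 and 26.9 CPM (edgeR adjusted p = 0.083). Of 12 cytokine and pattern receptors and adaptors, 0 passed by edgeR, 3 higher and 1 lower had an unadjusted p under 0.05, and the median change was -0.20. Of all 7524 genes tested, 542 higher and 597 lower had such a p by edgeR. *Tnfrsf12a*, the Tweak receptor gene, stood at 607, 528 and 605 CPM against 479, 258 and 368 CPM (0.72 ± 0.18, edgeR adjusted p = 0.12).

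Cell cycle genes had the highest median change of the lists, 0.96, with 3 of 26 past the test, all higher. *Ccnd1*, the gene of cyclin D1, rose by 1.41 ± 0.19 (edgeR adjusted p = 0.02), at 1224, 474 and 633 CPM in Ccl2-high against 569.6, 189 and 210.5 CPM in Ccl2-zero cells. *Rrm2*, a ribonucleotide reductase subunit, rose by 1.68 ± 0.26 (edgeR adjusted p = 0.032), at 163, 10.8 and 93.7 CPM against 70.3, 8.59 and 18.9 CPM. *Mcm3*, of the replicative helicase, rose by 1.52 ± 0.23 (edgeR adjusted p = 0.029), at 62.4, 21.6 and 43.2 CPM against 26.1, 4.3 and 13.8 CPM. The Ccl2-high values of *Rrm2* and *Mcm3* in eRT 568 are 1 and 2 UMIs. Cycling cells were those with at least 2 of *Mki67*, *Top2a*, *Cdk1*, *Birc5* and *Ccnb1* detected. Cells that cycle without 2 of these detected stayed in. With cycling cells left out, 130, 12 and 125 of 203, 12 and 146 Ccl2-high cells were kept. Of 967, 49 and 368 Ccl2-zero cells, 824, 46 and 356 were kept. The edgeR values were then 1.49 (adjusted p = 0.022) for *Ccnd1*, 1.67 (adjusted p = 0.029) for *Rrm2* and 1.40 (adjusted p = 0.14) for *Mcm3*. In cells thinned to 2000 UMIs neither *Rrm2* (edgeR adjusted p = 0.12) nor *Mcm3* (edgeR adjusted p = 0.17) passed, and *Mcm3* did not pass against Ccl2-zero cells of matched depth either, at 1.23 (adjusted p = 0.074).

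The other genes that rose had varied roles. *Ube2t*, a ubiquitin-conjugating enzyme of the Fanconi anemia pathway, rose by 1.37 ± 0.23 (edgeR adjusted p = 0.041). *Gsdmd*, the pore-forming gasdermin D, rose by 1.26 ± 0.21 (edgeR adjusted p = 0.04), at 125, 205 and 70.6 CPM in Ccl2-high against 60.6, 43 and 37 CPM in Ccl2-zero cells. *Ang2*, a gene of the angiogenin ribonucleases, rose by 1.29 ± 0.21 (edgeR adjusted p = 0.04), at 3.9, 248 and 173 CPM against 1.91, 85.9 and 79.8 CPM, so that its level in MYC spinal 1232 was low in both kinds. *Oaf* rose by 1.51 ± 0.24 (edgeR adjusted p = 0.033). *M1ap*, *Nipal1*, *Fgf15* and *2810417H13Rik* complete the 15 and had a low mean or were not higher in every tumor.

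**Figure D5:**
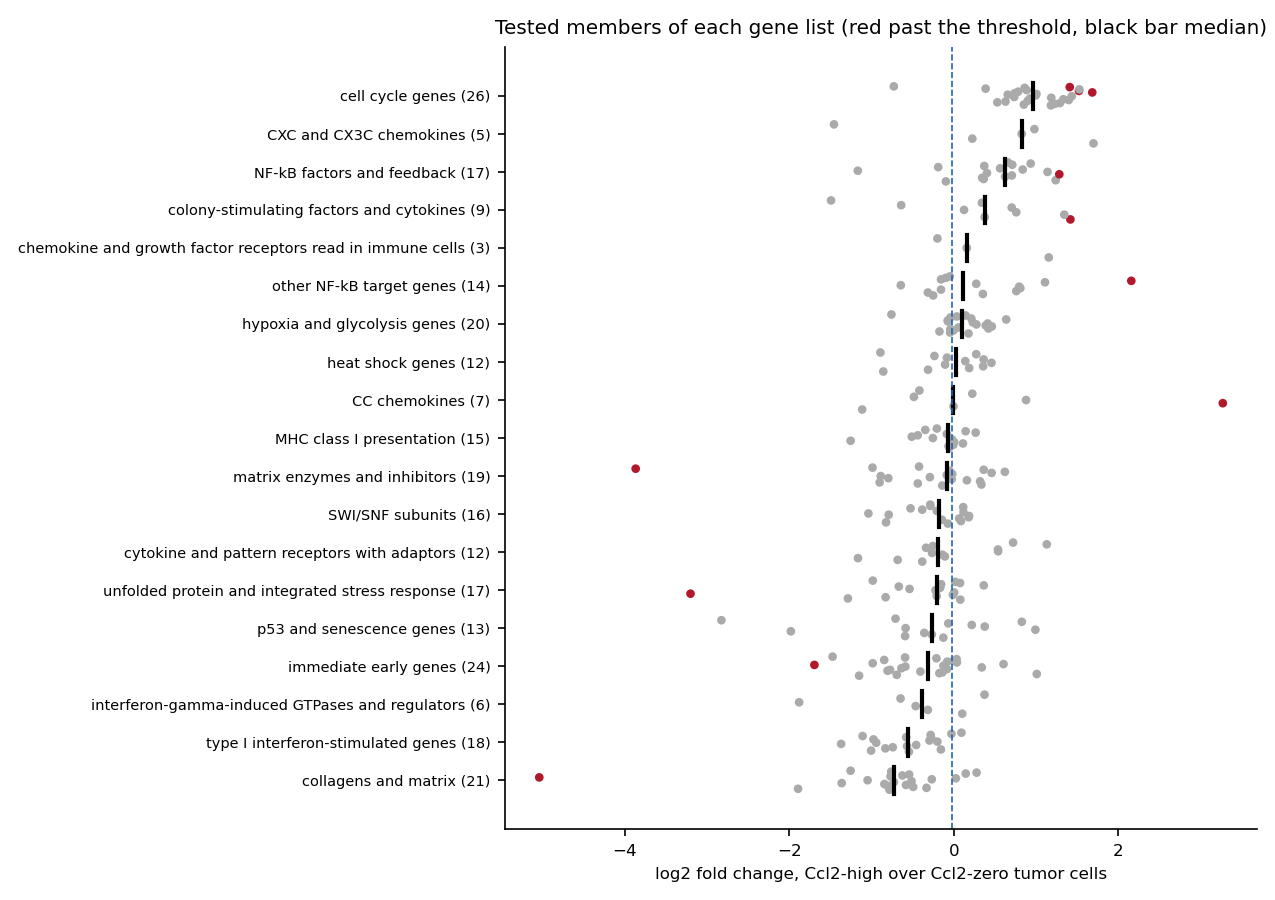
Log2 fold change of Ccl2-high over Ccl2-zero tumor cells (x axis) for each tested member of 19 gene lists (y axis, number tested in brackets), in red where past the threshold, with black bars at the list medians and a dashed line at the median of all genes, -0.02. Cell cycle genes have the highest median, 0.96, and collagens and matrix genes the lowest, -0.73.

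The genes that fell included genes of secreted factors and developmental regulators. Genes used to choose tumor cells differed too and were not tested. *Meg3* stood at 2816, 3211 and 4788 CPM in Ccl2-high against 5235, 6520 and 7262 CPM in Ccl2-zero cells. *Id3* stood at 1113, 312 and 1054 against 1488, 558 and 2200 CPM. *Col1a2*, *Serpinh1* and *Prrx1* were lower in each tumor as well, and *Crabp1* was higher in each. The part of this choice in the falls below was not tested. *Dlk1*, the gene of a noncanonical Notch ligand of embryonic tissue, fell by 1.82 on the log2 scale (edgeR adjusted p = 0.021). It stood at 496, 259 and 160.1 CPM in Ccl2-high against 1474, 1662 and 522 CPM in Ccl2-zero cells, and Ccl2-low cells lay between in each tumor, at 794, 1368 and 168 CPM. *Npy*, the gene of neuropeptide Y, stood at 1.95, 162 and 133 CPM against 79.5, 1538 and 835 CPM (-3.17 ± 0.34, edgeR adjusted p = 0.0077). *Ptn*, the gene of the growth factor pleiotrophin, stood at 4.55, 10.8 and 6.32 CPM against 15, 202 and 219.9 CPM (-3.84 ± 0.49, edgeR adjusted p = 0.016).

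*Id2*, an inhibitor of basic helix-loop-helix factors, stood at 111, 21.6 and 5.27 CPM against 380.1, 98.8 and 64.6 CPM (-2.05 ± 0.29, edgeR adjusted p = 0.023). *Nfix*, a nuclear factor I gene, stood at 59.2, 97 and 40.0 CPM against 135, 198 and 93.6 CPM (-1.09 ± 0.18, edgeR adjusted p = 0.038), and *Hoxc10*, a posterior homeobox gene, at 65, 0 and 67.4 CPM against 140.3, 8.59 and 178 CPM (-1.12 ± 0.20, edgeR adjusted p = 0.047). Against Ccl2-zero cells of matched depth *Id2*, *Nfix* and *Hoxc10* did not pass (edgeR adjusted p of 0.098, 0.22 and 0.057). For all 3 genes the Ccl2-high level was below the Ccl2-zero level of each tumor. For *Hoxc10* in eRT 568 this is 0 against 2 UMIs, which cannot show a fall, since 3 counts in Ccl2-high cells would be 32.3 CPM. *Itm2a*, the gene of a membrane protein, stood at 16.9, 0 and 3.16 CPM against 118, 68.7 and 212 CPM (edgeR adjusted p = 0.011). *Ctla2a*, which resembles a cathepsin propeptide, stood at 1.95, 162 and 4.21 CPM against 24.4, 2663 and 60.2 CPM (-3.94 ± 0.27, edgeR adjusted p = 0.00042). *Igfbp6*, *Dhrs7*, *Gng8*, *Aqp5*, *Bex1* and *Plac8* were also past the threshold and lower, and *Igfbp6* was at 1.3 against 1.48 CPM in MYC spinal 1232. *Bex1* rests on MYC spinal 1232, at 28 against 165 CPM, since eRT 593 held 0 UMIs in both kinds and eRT 568 held 1 in Ccl2-high and 0 in Ccl2-zero cells. *Aqp5* rests on both eRT, with 0 UMIs in MYC spinal 1232.

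Collagen and matrix genes had the lowest median of the lists, -0.73, with 1 of 21 past the test. That gene was *Bgn*, of the proteoglycan biglycan, at 1.95, 0 and 0 CPM in Ccl2-high against 25.6, 68.7 and 74.7 CPM in Ccl2-zero cells (edgeR adjusted p = 0.0091). Of the list, 12 members were lower in all 3 tumors, against 19.6% of all genes tested, and 0 were higher in all 3. *Col3a1* stood at 2.6, 205 and 143 CPM against 52.8, 498 and 429.6 CPM (-1.89 ± 0.35, edgeR adjusted p = 0.059). The fibroblast marker sums, which were lower in Ccl2-high cells of each tumor, move with these genes, and their part was not tested. Of 19 matrix enzymes and inhibitors, *Serpine2*, a protease inhibitor gene, was past the test and lower, at 1.95, 0 and 0 CPM against 25.4, 12.9 and 10.2 CPM (edgeR adjusted p = 0.029). Its values in eRT 568 are 0 and 3 UMIs, where 3 counts in Ccl2-high cells would be 32.3 CPM. *Sulf1*, a heparan sulfate sulfatase gene (edgeR adjusted p = 0.026), and *Pcolce*, which aids procollagen processing (edgeR adjusted p = 0.047), were lower as well. Against Ccl2-zero cells of matched depth *Pcolce* was at -0.30 (adjusted p = 0.9) by edgeR.

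Immediate early genes, which cells switch on soon after a stimulus or dissociation, had a median change of -0.31, with 1 of 24 past the test. *Dusp1*, a phosphatase of MAP kinases, stood at 46.8, 108 and 13.7 CPM against 130.1, 279 and 89.3 CPM (-1.70 ± 0.24, edgeR adjusted p = 0.023). *Fos* was lower in 3 of 3 tumors, at 439.7, 1627 and 414 CPM against 1395, 1928 and 1260 CPM, and did not pass (-1.15 ± 0.23, edgeR adjusted p = 0.075). Heat shock genes gave 0 of 12 past the edgeR test, 1 higher and 2 lower at an unadjusted p under 0.05, and a median of 0.03. Of all 7524 genes tested, 542 higher and 597 lower had such a p by edgeR.

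*Nupr1*, a stress-induced nuclear protein gene, was the 1 of 17 genes of the unfolded protein and integrated stress response to pass, at 2.6, 0 and 9.48 CPM against 19.7, 120.3 and 94.3 CPM (-3.20 ± 0.36, edgeR adjusted p = 0.0077). Of 18 type I interferon-stimulated genes (median -0.56), 6 interferon-gamma-induced genes (median -0.39), 15 genes of MHC class I presentation (median -0.07), 20 hypoxia and glycolysis genes (median 0.10), 13 p53 and senescence genes (median -0.27) and 16 SWI/SNF subunits (median -0.18), 0 passed the edgeR test, and 3, 1, 2, 3, 4 and 3 genes of these lists had an unadjusted p under 0.05. Of all 7524 genes tested, 1139 had such a p by edgeR. *Ifi27l2a*, an interferon-induced gene, stood at 1629, 2608 and 296 CPM against 3920, 2285 and 1509 CPM, lower in 2 of 3 tumors (edgeR adjusted p = 0.18). *Arid1a*, a subunit of the complex that *Smarcb1* belongs to, stood at 70.2, 53.9 and 72.7 CPM against 137, 85.9 and 134 CPM (edgeR adjusted p = 0.09).

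Ccl2-low cells were set against the same Ccl2-zero cells in MYC spinal 1232 and eRT 593, the tumors with at least 10 cells of both kinds. Of 7978 genes tested, 51 were higher (0.639%) and 57 lower (0.714%) by edgeR. By DESeq2 8 passed, 2 higher and 6 lower, so not all of the higher genes named below passed by DESeq2. The log2 change in Ccl2-low cells was 2.21 (edgeR adjusted p = 2.53e-08) for *Ccl7*, 1.60 (edgeR adjusted p = 8.16e-06) for *Mmp9*, 0.88 (edgeR adjusted p = 2.61e-05) for *Ccnd1* and 0.71 (edgeR adjusted p = 0.0013) for *Csf1*. It was -1.14 (edgeR adjusted p = 1.12e-06) for *Dlk1*, -1.77 (edgeR adjusted p = 3.65e-07) for *Npy*, -1.66 (edgeR adjusted p = 3.65e-07) for *Itm2a* and -1.02 (edgeR adjusted p = 0.00094) for *Id2*. *Rrm2*, at 0.42 (edgeR adjusted p = 0.49), and *Mcm3*, at 0.75 (edgeR adjusted p = 0.27), did not pass. *Nfkbia*, at 0.02 (edgeR adjusted p = 0.986), did not pass either, and its sign turned under other settings. *Spp1* passed at 2.77 (edgeR adjusted p = 0.0032) but not by DESeq2, and its tumors went opposite ways, with 1474 CPM in Ccl2-low against 87.3 CPM in Ccl2-zero cells of MYC spinal 1232 and 6.07 against 59.5 CPM in eRT 593. The comparisons of Ccl2-low and of Ccl2-high cells share their Ccl2-zero cells and stand side by side only.

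Depth was matched in further fits. Against Ccl2-zero cells of matched depth (318, 10 and 72 cells), with medians of 6324, 7043 and 5596 UMIs, 27 of the 35 genes were tested, 27 had the same direction and 15 remained past the threshold. The edgeR log2 changes there were 4.44 (adjusted p = 2.15e-06) for *Ccl7*, 1.04 (adjusted p = 0.011) for *Csf1*, 2.07 (adjusted p = 0.0067) for *Mmp9* and 1.15 (adjusted p = 0.0065) for *Nfkbia*. They were -3.16 (adjusted p = 4.52e-06) for *Npy*, -1.55 (adjusted p = 0.02) for *Dlk1*, -0.82 (adjusted p = 0.57) for *Ctla2a* and -1.05 (adjusted p = 0.098) for *Id2*, the last pair no longer past the threshold. The edgeR adjusted p there was 0.22 for *Nfix*, 0.057 for *Hoxc10*, 0.074 for *Gsdmd* and 0.29 for *Ang2*, also not past the threshold. It was 0.067 for *Ube2t*, 0.41 for *Igfbp6*, 0.22 for *Gng8* and 0.085 for *Dhrs7*, likewise not past it. Cells of at least 2000 UMIs were also thinned to 2000, each kept in the kind that its full *Ccl2* count gave. Cells below that depth, 6, 0 and 0 Ccl2-high and 78, 10 and 68 Ccl2-zero cells, were left out. Of the 35 genes, 26 were tested there, 26 had the same direction and 18 remained. Among tumor cells with no UMI of *Tyrobp*, *Fcer1g* or *Ptprc*, in MYC spinal 1232 and eRT 593, 33 were tested, 33 had the same direction and 31 remained, with edgeR values of 2.82 (adjusted p = 0.0044) for *Ccl7* and 1.27 (adjusted p = 0.0031) for *Csf1*.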

How the data were processed

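Single-cell RNA-seq of 6 tumors, 3 MYC spinal and 3 eRT, was analysed. The authors sorted live cells, made 10x Genomics 3′ libraries, aligned reads to mm10 with Cell Ranger 2.0.2 and deposited raw UMI counts. Each deposited table lists genes found in at least 3 cells. Kept cells held 3841706 to 26184224 UMIs per tumor. Cells are numbered, so shared barcodes could not be counted, and 0 cells were identical between libraries.

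The members and gene lists were chosen with earlier results of these data known. UMI counts were summed per tumor and kind of tumor cell (at least 10 cells) and tested with edgeR 4.0.16 in R 4.3.3 by filterByExpr, TMM factors and the quasi-likelihood test, with tumor as a block because both kinds come from the same animal, and p-values were adjusted over all genes. *Ccl2*, *Smarcb1* and the genes that define tumor cells were not tested. The difference between subtypes was an interaction term. Genes named were up to 15 per direction by size of change, among those past the threshold, alike in every tumor and above a log2 CPM mean of 5, and up to 4 per list by smallest adjusted p. *Ccl11*, *Ccl12* and the remaining genes past the threshold were named after their values were seen. Scrublet (scanpy 1.11.5) marked 21 of 22163 cells, or 0.0948%, a rate at which the caller has failed, and no cell was dropped for it. For *Smarcb1* and *Il23a* a count of 0 is given with the level of 3 counts, and other zeros stand without it. In MYC spinal 1232, eRT 568 and eRT 593, 3 counts would be 1.95, 32.3 and 3.16 CPM in Ccl2-high cells. In Ccl2-zero cells they would be 0.636, 12.9 and 2.18 CPM. The scripts were tested on simulated data. Alternatives were DESeq2 1.42.0, other scaling, filters, cuts and depths, and each tumor left out. Coordinates are from GENCODE M21.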

Additional observations from a re-analysis of the deposited data

Results flagged for a closer look

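The change from Ccl2-zero to Ccl2-high tumor cells differed between MYC spinal 1232 and the eRT 568 and 593 in 16 of 7524 genes (0.213%, edgeR interaction term, Benjamini-Hochberg adjusted p under 0.05). DESeq2 called 0 genes, with 32 at an unadjusted p under 0.05. The MYC spinal side is 1 tumor, so subtype and animal cannot be told apart. Values are the eRT change minus the MYC spinal change on the log2 scale, and levels are given as Ccl2-high against Ccl2-zero cells.

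Secreted ligands stood on both sides, with *Ccl8* at 6.88 and *Ccl5* at -2.77. *Angptl4*, the gene of a lipoprotein lipase inhibitor, differed by 2.93, at 7.16 against 22.2 CPM in MYC spinal 1232, 129 against 47.2 CPM in eRT 568 and 143 against 58.1 CPM in eRT 593.

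Matrix genes were on both sides as well. *Fn1*, the fibronectin gene, differed by -2.65, at 654 against 652 CPM in MYC spinal 1232, 32.3 against 193 CPM in eRT 568 and 22.1 against 138 CPM in eRT 593. *Col4a2* differed by -4.21. *Col8a1* (7.87), *Ccdc80* (3.97), *Mgp* (3.86) and *Efemp1* (3.23) were lower in Ccl2-high cells of MYC spinal 1232, with *Col8a1* at 0 against 31.6 CPM.

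The others were *Cryab* (-4.36), *Cd24a* (-4.23), *Mdm2* (2.38), *Stmn2* (2.49), *Gadd45g* (3.16), *Filip1l* (4.06) and *Lgals7* (5.02). *Gadd45g* was at 41 against 159 CPM in MYC spinal 1232, 1347 against 245 CPM in eRT 568 and 144 against 120.5 CPM in eRT 593. *Lgals7*, *Mgp* and *Stmn2* were lower in Ccl2-high cells of MYC spinal 1232 and eRT 593 and higher in those of eRT 568.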

How the results depend on the processing

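For Ccl2-high against Ccl2-zero cells, the 35 genes became 102 without TMM factors, 474 with every gene of at least 1 UMI, 84 with sums of at least 20 cells, 5 by Bonferroni adjustment, 0 with no replicate block by edgeR (155 at an unadjusted p under 0.05), 64 and 439 with the cut at 3 and 10 *Ccl2* UMIs, 171 with no immune UMI, 78 with at least 4 tumor genes and 20 without cycling cells. Sums of at least 4 cells, an alternative chosen after seeing the data that adds MYC spinal 1177, gave 119. Leaving out a tumor gave 5 to 84. The 35 genes had the same direction wherever they were tested in these fits, with 1 exception, *Bex1*, at 0.73 by DESeq2. That method called 24 genes, 21 of them among the 35.

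For Ccl2-low cells the 108 genes became 8 by DESeq2, 55 with sums of at least 5 or 4 cells, 29 by Bonferroni adjustment and 0 with no replicate block by edgeR (42 at an unadjusted p under 0.05), and with a tumor left out no fit was possible. *Nfkbia* turned to -0.0254 without TMM factors and -0.022 with every gene of at least 1 UMI. The 16 differences between subtypes became 0 by DESeq2, 2 in thinned cells and 0 without *Smarcb1* UMIs (32 and 162 at an unadjusted p under 0.05 for the counts of 0), and with a tumor left out, 20 cells, 10 *Ccl2* UMIs or no immune UMI they could not be fitted. The cause was not tested.

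*Ccl5*, at -0.01, was positive with at least 20 cells (0.73), at least 4 cells (0.51), no replicate block (0.96), 10 *Ccl2* UMIs (0.68), thinned cells (0.28), no immune UMI (1.34), no *Smarcb1* UMI (0.0064), the stricter cell filter (0.00367), without the highest doublet scores (0.0807) and without cycling cells (0.34), and lay at -1.21 to 0.73 with a tumor left out.

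The share difference of -5.04 points was 0.851 with the cut at 10 *Ccl2* UMIs and -14.5 to 6.3 with a tumor left out. The *Smarcb1* ratio lay at 0.0193 to 0.0452 in its alternatives. Depth limits eRT 568, where 3 counts in the 12 Ccl2-high cells are 32.3 CPM.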
